A study of Mus musculus with 32 samples.

Results

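The genes described here are 35 interferon-stimulated genes, matched by symbol in the gene lists of the count matrices, which hold 31053 genes. All 35 were found. Bone marrow stromal cells grown in osteogenic medium (BMSC-OBs) from Diversity Outbred mice, a stock bred by random mating from a set of founder strains, were profiled by droplet single-cell RNA-seq with a 3′ kit. Marrow cells of the femur were grown to confluence and then differentiated, and the cells of 5 mice (4 in pools 10, 17 and 18) were combined after dissociation into each of 16 pools, which are numbered 1 to 14, 17 and 18. No pool received a treatment that another lacked, and the labels give no age or sex, so the design holds no treated and untreated groups: the comparisons are between cell classes of the same pools and between pools. Each pool was sequenced in 2 runs of the same droplets, and the first run is used. Because every pool holds other outbred mice, differences in genotype and differences in culture or handling between pools cannot be told apart.

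Interferons are secreted proteins that cells release on sensing viruses or other danger. Type I interferons act through the receptor subunits *Ifnar1* and *Ifnar2* and activate a transcription factor complex that includes *Stat2* and *Irf9* and binds the interferon-stimulated response element (ISRE) of target genes. Interferon gamma, made chiefly by T cells and natural killer cells, acts through *Ifngr1* and *Ifngr2* and leads to binding at the gamma-activated site (GAS). Targets include sensors of foreign nucleic acid, enzymes that block virus growth, the ubiquitin-like protein *Isg15* and GTPases that attack vacuoles of intracellular pathogens. Marrow cultures in osteogenic medium hold mesenchymal cells of the bone-forming and fat-forming lineages, and also leukocytes carried over from marrow.

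On GRCm38 (GENCODE M21 coordinates) several of the genes lie in clusters: the 4 IFIT genes at chr19:34550694-34650009, *Gbp7*, *Gbp3* and *Gbp2* at chr3:142530342-142638008, *Oas2*, *Oas3* and *Oas1a* at chr5:120730333-120907521, and *Rsad2* beside *Cmpk2* at chr12:26442746-26479837. All 35 are annotated as protein-coding. Promoter sequence shows what these genes share beyond their names. Of the 35 genes, 27 matched a RefSeq promoter of GRCm38.p6, from 250 bases before to 50 bases after the gene's start. The letters GAAANNGAAA, the core of the ISRE, were present on either strand in 17 of the 27 (63.0%), against 3.99% of the promoters of 27025 genes. The letters TTCNNNGAA, the core of the GAS, were present in 6 of 27 (22.2%), against 9.55% of all. Overlapping matches were counted as separate matches, and a match is a description of letters and not a site shown to be used. By role, 5 of 6 GTPase genes, 3 of 4 IFIT genes and 2 of 4 OAS genes held the ISRE letters. So did 2 of 2 sensors, 3 of 7 other antiviral effectors, 1 of 3 transcription factors and *Isg15*. Of 42 interferon-stimulated genes outside the 35, 14 (33.3%) held them. The 6 windows below, each of 150 bases ending 20 bases after the start, are examples that all hold ISRE letters, which not every matched gene does. They leave out some genes with large contrasts in what follows, such as *Ifi27l2a* and *Rsad2*. Capitals mark ISRE and GAS letters, and each window is written 5′ to 3′ on the gene's strand.
*Ifit1*, chr19:34640759-34640908, plus strand: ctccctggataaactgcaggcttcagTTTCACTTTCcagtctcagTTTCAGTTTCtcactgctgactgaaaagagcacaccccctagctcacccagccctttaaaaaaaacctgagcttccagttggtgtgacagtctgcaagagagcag
*Isg15*, chr4:156200799-156200948, minus strand: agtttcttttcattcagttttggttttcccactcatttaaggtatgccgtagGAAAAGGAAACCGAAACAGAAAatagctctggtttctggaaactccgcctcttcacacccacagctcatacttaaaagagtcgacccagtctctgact
*Oas1a*, chr5:120907506-120907655, minus strand: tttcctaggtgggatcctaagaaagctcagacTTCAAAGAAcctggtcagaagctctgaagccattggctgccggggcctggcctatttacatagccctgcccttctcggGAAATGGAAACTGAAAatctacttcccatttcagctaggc
*Gbp2*, chr3:142620533-142620682, plus strand: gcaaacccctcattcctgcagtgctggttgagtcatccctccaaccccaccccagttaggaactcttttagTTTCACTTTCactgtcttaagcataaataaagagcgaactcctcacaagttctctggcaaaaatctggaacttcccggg
*Gbp7*, chr3:142530206-142530355, plus strand: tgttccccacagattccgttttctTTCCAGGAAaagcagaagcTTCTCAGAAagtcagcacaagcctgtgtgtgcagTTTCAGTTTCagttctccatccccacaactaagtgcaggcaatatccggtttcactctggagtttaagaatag
*Igtp*, chr11:58199426-58199575, plus strand: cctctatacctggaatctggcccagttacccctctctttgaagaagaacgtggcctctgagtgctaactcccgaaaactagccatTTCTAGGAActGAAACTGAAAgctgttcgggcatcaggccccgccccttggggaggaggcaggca
*Ifit1* held 2 separate ISRE matches on the minus strand, and *Isg15* held 3 that overlap. *Igtp*, *Gbp7*, *Oas1a* and *Bst2* held both kinds of letters, whereas *Gbp2*, a GTPase of the same family as *Gbp7*, held the ISRE letters and no GAS letters in its 300-base promoter.

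After the cell filters, 88909 of 107853 barcodes were kept. A pool had between 53990642 and 100777353 UMIs (unique molecular identifiers, each standing for 1 captured transcript). Cells with at least 3 of 9 collagen and stromal genes, and at least 10 times as many UMIs of these as of pan-leukocyte genes, were called mesenchymal (63582 cells, 1541 to 6182 per pool). Cells with at least 3 of 9 pan-leukocyte genes, and at least as many UMIs of these as of the stromal genes, were called leukocytes (17037 cells, 409 to 2378 per pool), and 8290 cells passed neither gate. Median depth was 2805.5 to 21169.5 UMIs per mesenchymal cell, lowest in pool 13, and 2343 to 7474.5 per leukocyte. A pair of pools shared 3 to 28 barcodes. The summed level of the 9 pan-leukocyte genes was 0.474 to 2.22 UMIs per 10000 in mesenchymal cells against 46.7 to 65.6 in leukocytes. The gates use these genes, so this separation was set in advance. The 4 endothelial markers summed to at most 0.218 UMIs per 10000 in both classes, and the 4 erythroid markers to at most 0.0168.

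Levels are given as UMIs per 10000 UMIs of a class in a pool, and a UMI of a 3′ kit stands for a transcript whatever its length. RNA from broken cells enters all droplets, and its size was read from *Lyz2*, the lysozyme of macrophages: its level in mesenchymal cells was 1.64% of that in leukocytes. For 4 of the 35 genes the mesenchymal level was at most 3 times that percentage of the leukocyte level, namely *Ifi27l2a* (1.67%), *Oas3* (2.04%), *Oas2* (2.67%) and *Trim30a* (4.34%). The 9 pan-leukocyte genes reached at most 2.03% (*Fcer1g*), and the others lay at 0.788% to 1.52%. The mesenchymal gate holds these 9 genes low, so their percentages can understate free RNA. The mean mesenchymal level of *Ifi27l2a*, whose percentage is near that of *Lyz2*, is read as background here, so no expression is claimed from it. That reading rests on *Lyz2* and *Fcer1g*, and free RNA as the source was not tested. The level lies above the other pan-leukocyte genes and above the granulocyte genes *S100a8* (0.449%) and *S100a9* (0.383%). *Oas3*, *Oas2* and *Trim30a* lie above each of the 9, *Oas3* barely, and are read neither as background nor as expression. The other 31 genes were above 3 times the *Lyz2* percentage. In the opposite direction, *Ibsp*, the bone sialoprotein of osteoblasts, reached 2.55% of its mesenchymal level in leukocytes.

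Taken as a whole class, mesenchymal cells held a low level of the 35 genes together, and leukocytes a higher level that was mostly 1 gene. Summed over the 35 genes, mesenchymal cells had 3.68 ± 1.14 UMIs per 10000 (SD, n = 16 pools). Pool 17 was lowest with 2.44 and pool 6 highest with 6.32. With *Ifi27l2a* left out these were still the lowest and highest pools, at 2.21 and 6.13. Leukocytes had 23.8 ± 10.3 (SD, n = 16 pools), lowest in pool 18 (8.27) and highest in pool 1 (50.2). *Ifi27l2a*, a small interferon-induced membrane protein, gave 65.4% of the leukocyte sum on average, with a range of 25.7% to 91.2% over pools. Without *Ifi27l2a* the leukocyte sum was 6.81 ± 2.39 (SD, n = 16 pools), and the order of pools changed: pool 1 had the lowest sum (4.42) and pool 6 the highest (11.6). In mesenchymal cells the largest contributor was *Bst2* (tetherin, which holds budding virus at the cell surface), with 35.7% of the sum.

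Among the genes of mesenchymal cells, *Bst2* stood first at 0.971 to 1.84 UMIs per 10000 over pools, with a median of 1.21. *Isg15* followed at 0.178 to 1.09 with a median of 0.492. *Ifi27l2a* ranged from 0.0906 to 0.958. Its mean is read as background, as given above, but in single pools it stood above *Lyz2*. It reached 5.67% of the leukocyte level in pool 13 (*Lyz2* 3.43%), 4.26% in pool 18 (*Lyz2* 2.59%) and 3.53% in pool 5 (*Lyz2* 1.77%). In other pools it was below *Lyz2*, as in pool 4 (0.475% against 1.05%). *Ifi35*, a regulator of interferon signalling, was steady across pools (0.119 to 0.229, median 0.169). *Ifit1*, which binds viral RNA lacking a host-type cap, ranged from 0.0235 to 0.402 around a median of 0.0532. *Irgm1*, a GTPase that guards membranes, ranged from 0.0603 to 0.254 with a median of 0.111. The neighbours *Ifit1* and *Irgm1* in this order did not differ beyond their spread over pools (0.116 ± 0.132 and 0.115 ± 0.050, SD, n = 16 pools). The other 29 genes had means between 0.0008 and 0.109 UMIs per 10000, with *Oas2* lowest (0.000804) and *Irf9* highest (0.109).

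In leukocytes *Ifi27l2a* ranged from 2.13 in pool 18 to 45.8 in pool 1, with a median of 15.8 UMIs per 10000. *Bst2* was next at 0.937 to 2.03 (median 1.54). *Isg15* ranged from 0.169 to 1.31 (median 0.393), and *Gbp2*, a guanylate-binding GTPase, from 0.0958 to 1.43 (median 0.255). *Parp14*, an ADP-ribosyltransferase, ranged from 0.220 to 0.644 (median 0.416) and *Ifi35* from 0.188 to 0.505 (median 0.327). *Bst2* and *Ifi35* varied 1.90-fold to 2.69-fold over pools in both classes, whereas *Gbp2* varied 14.9-fold in leukocytes.

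Which of the genes differ between leukocytes and mesenchymal cells of the same pools was tested on counts summed per pool and class. Leukocytes had higher levels of 29 of the 35 genes and no gene was lower, in a comparison in which 42.5% of 13608 genes tested were called higher and 42.4% lower. The median log2 fold change of the 35 was 1.30, against -0.01 over all genes tested. The 5 OAS genes, whose products make the signal that switches on RNA degradation or are relatives of those enzymes, were all higher in leukocytes. *Oas3* was at 0.0632 to 0.198 UMIs per 10000 in leukocytes and 0.000607 to 0.00690 in mesenchymal cells, so the classes did not overlap (log2 fold change 5.72 ± 0.20 SE, adjusted p = 2.1e-16). *Oas2* was at 0.0153 to 0.0623 against 0.000178 to 0.00163 (5.16 ± 0.21 SE, adjusted p = 3.0e-15). *Oasl1* and *Oas1a* were higher by 4.05 and 3.96 on the log2 scale, and *Oasl2* by 1.47. *Oas1a* belongs to a family of near-identical copies, and reads that match several of them are not counted, so its level is uncertain.

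*Ifi27l2a* had the largest difference (5.98 ± 0.25 SE, adjusted p = 6.1e-15). *Trim30a*, which restrains inflammatory signalling, was at 0.182 to 0.457 in leukocytes and 0.00414 to 0.0343 in mesenchymal cells (4.68 ± 0.15 SE, adjusted p = 4.8e-17), again without overlap. *Rsad2* (viperin, which makes a chain-terminating nucleotide) was 4.46 higher on the log2 scale, and *Cmpk2*, its neighbour in function, was 3.16 higher. Since the mean mesenchymal level of *Ifi27l2a* is read as background, its fold change can hold free RNA. The mesenchymal levels of *Oas3*, *Oas2* and *Trim30a*, at 2.04%, 2.67% and 4.34% of the leukocyte level, were read neither as background nor as expression. Their fold changes and ranges can hold free RNA too.

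The 4 sensors, the 3 transcription factors and the 2 PARP genes were also higher in leukocytes. *Ifih1* (Mda5, a sensor of long double-stranded RNA) was higher by 2.41 on the log2 scale and *Ddx58* (Rig-I) by 0.63. *Zbp1*, a sensor of Z-form nucleic acid, was higher by 1.96 and *Dhx58* by 2.09. *Irf7*, the main amplifier of type I interferon, was higher by 1.63, *Irf9* by 1.29 and *Stat2* by 0.88. *Parp14* was higher by 3.16 and *Parp9* by 1.02. Of the 6 GTPase genes, *Gbp3* (2.27), *Gbp2* (1.92), *Gbp7* (1.70), *Ifi47* (1.30) and *Igtp* (1.26) were higher in leukocytes on the log2 scale. *Ifi35* (0.87), *Rtp4* (0.70), *Bst2* (0.27) and *Xaf1* (0.25) had small differences, and the call for *Xaf1* was lost in 12 of the alternative settings. When cells were limited by UMI counts in place of detected genes, which drops every cell over 6200 UMIs, 15 of 24 genes tested were higher and 2 lower, against 38.9% and 40.6% of 10014 genes, and *Bst2* turned to -0.28 and *Rtp4* to -0.056.

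The IFIT genes and *Isg15* were different in that most did not pass the test. *Isg15* was higher in leukocytes in 7 of 16 pools and lower in the other 9 (log2 fold change -0.15 ± 0.17 SE, adjusted p = 0.44). *Ifit1* had a log2 fold change of -0.02 ± 0.28 SE (adjusted p = 0.94), *Ifit3* of -0.14 ± 0.33 SE (adjusted p = 0.71) and *Ifit3b* of -0.48 ± 0.39 SE (adjusted p = 0.26). *Ifi44* and *Irgm1* did not pass either (-0.65 ± 0.34 SE, adjusted p = 0.085, and 0.31 ± 0.18 SE, adjusted p = 0.10). The signs for *Ifit1* and *Ifit3* turned on single pools: without pool 6, 7, 10 or 12 the *Ifit1* value was 0.03 to 0.13, and without pool 6 or 12 the *Ifit3* value was 0.01 to 0.02. *Ifit2* and *Usp18*, the protease that removes *Isg15*, were higher in leukocytes by 0.72 and 0.66. The *Ifit2* call was narrow (adjusted p = 0.035) and was lost in 14 of the alternative settings, with a value of 0.22 without pools 5, 6 and 8. *Ifit3* and *Ifit3b* are near-identical copies, so the split of reads between them is uncertain.

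Of 52 other interferon-stimulated genes tested, 41 were higher in leukocytes and 6 lower, against 42.5% and 42.4% of all genes tested. The largest differences were in *Ifi209*, a relative of DNA sensors (6.14 ± 0.28 SE), *Slfn2* (6.07 ± 0.15 SE) and *Ms4a4c* (5.82 ± 0.38 SE). The 6 lower genes were *Isg20*, *Iigp1*, *Ifitm3*, *Nlrc5*, *B2m* and *H2-K1*, with *Isg20*, an exonuclease, at -1.96 ± 0.16 SE and *Iigp1*, a GTPase, at -1.63 ± 0.37 SE. Of 25 genes of interferon production and signalling, 19 were higher and 2 lower, against the same shares. The endosomal RNA sensor *Tlr7* (6.07 ± 0.16 SE), *Irf8* (5.60 ± 0.10 SE) and *Irf5* (4.90 ± 0.12 SE) led them, and *Socs1*, a feedback inhibitor (-1.22 ± 0.16 SE), and the kinase *Jak2* (-0.81 ± 0.08 SE) were lower.

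Among the leukocytes, macrophage-gated cells were the largest class (12260 cells, 314 to 2018 per pool). T-cell-gated cells reached 20 cells in only 4 pools, with 23 in pool 5, 125 in pool 6, 83 in pool 8 and 156 in pool 14. In those 4 pools macrophages had higher levels of 11 of 25 genes tested and lower levels of 2, against 29.6% and 26.3% of 8884 genes. The filter on low counts was passed by several of these genes through macrophages alone, so the count of 11 is a description. It was 6 of 21 with a stricter gate and 18 of 35 with no filter on low counts. *Rsad2* was at 0.105 to 1.21 UMIs per 10000 in macrophages and 0 to 0.0301 in T cells, where it had 3 UMIs in all. *Oasl2* was at 0.110 to 0.249 against 0 to 0.0131, with 1 UMI in T cells. *Oasl1*, *Oas3* and *Rtp4* had 3, 7 and 12 UMIs in T cells. These 5 genes are among the 11, and no fold is given for them. *Gbp2* was higher in macrophages by 2.62 on the log2 scale, and *Ifih1*, *Bst2*, *Parp14*, *Ifi27l2a* and *Ifi35* by 0.76 to 1.16. The call for *Ifi35* was lost in 8 of the alternative settings, and *Ifi27l2a* turned to -0.035 when cells were limited by UMI counts.

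The 2 genes called lower in macrophages were *Igtp*, a GTPase of the immunity-related family, and *Xaf1*, a regulator of cell death. *Igtp* was at 0.223 to 0.854 UMIs per 10000 in T cells and 0.0228 to 0.444 in macrophages (log2 fold change of macrophages over T cells -1.19 ± 0.34 SE, adjusted p = 0.010). *Xaf1* was at -0.73 ± 0.29 SE (adjusted p = 0.048). The *Xaf1* call was lost in 7 alternative settings, and neither gene was called without the pairing of pools. For *Gbp7*, *Gbp3*, *Ifi47*, *Zbp1* and *Trim30a* the values were between -0.24 and 0.25 on the log2 scale and did not pass the test. Of 46 other interferon-stimulated genes 15 were higher in macrophages and 12 lower, near the shares over all genes tested (29.6% and 26.3%). *Ifi207* (7.07 ± 0.36 SE) and *Ifi204* (4.15 ± 0.39 SE) stood highest and *Isg20* (-3.53 ± 0.33 SE) lowest. Of 23 signalling genes 12 were higher and 3 lower, against the same shares. Limiting cells by UMI counts, which left 3 pools, gave 2 higher and 3 lower of 19 members tested, against 24.9% and 21.3% of 7247 genes. The median of the 19 was then -0.32 on the log2 scale, against 0.05 over all genes.

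Granulocyte-gated cells, which reached 20 cells in 11 pools, held less of these genes than macrophages. Of 16 genes tested 15 were lower than in macrophages of the same pools and none was higher, against 36.8% of 7883 genes called lower. *Ifi27l2a* was at 0.161 to 0.818 UMIs per 10000 in granulocytes and 3.48 to 30.5 in macrophages (log2 fold change -5.0 ± 0.28 SE, adjusted p = 1.3e-12), with no overlap. Macrophage markers lay around the same value, with *Csf1r* at -3.98, *Cd68* at -4.53, *Ms4a7* at -4.93, *Adgre1* at -5.13 and *C1qa* at -5.95. The gates set such marker genes apart between the 2 classes, so the marker values cannot measure free RNA. The granulocyte level of *Ifi27l2a* and its fold change can hold free RNA of macrophages, and the size of that part was not tested. *Oas3* and *Gbp3*, also called lower, had 12 and 31 UMIs in granulocytes in all, and no fold is given for them. *Gbp2*, with 91 UMIs in granulocytes, was at -2.37 ± 0.21 SE. *Bst2* was at 0.132 to 0.720 against 1.22 to 2.56 (-1.95 ± 0.18 SE, adjusted p = 2.5e-09). *Ddx58* did not pass the test (-0.37 ± 0.23 SE, adjusted p = 0.16). Only 16 of the 35 had enough counts for the filter, which macrophages could pass alone, and the other 19 had too few, so the count of 15 is a description. Without pool 4, 24 of 26 tested were lower. Limiting cells by UMI counts left 8 members tested, of which 7 were lower, against 34.8% of 6112 genes. Over all genes 2730 were higher and 2898 lower. With library size alone as scaling the split was 1427 to 4648, the median of all genes was at -0.55 and all 16 members tested were lower. Of 37 other interferon-stimulated genes 3 were higher (*Samd9l* 2.19 ± 0.17 SE, *Uba7* 1.08 ± 0.20 SE, *Cxcl10* 0.64 ± 0.24 SE) and 24 lower, led by *Slfn5* (-4.66 ± 0.26 SE), *Ifi207* (-4.50 ± 0.20 SE) and *Cd274* (-3.98 ± 0.21 SE). Of 22 signalling genes 6 were higher and 10 lower, against 2730 and 2898 of the 7883 genes.

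Within the mesenchymal cells, adipogenic-gated cells had a higher level of these genes than osteogenic-gated cells. Of the UMIs of the 35 genes in mesenchymal cells they held 42.7% over all pools, with 23.9% to 64.0% per pool. This share also follows the makeup of a pool: adipogenic-gated cells were 11.8% (pool 3) to 45.6% (pool 7) of its mesenchymal cells. Their share of the UMIs of all genes is not given here. They were gated by *Adipoq*, *Lpl*, *Lepr*, *Cxcl12*, *Hp*, *Pparg* and *Cebpa* (14667 cells, 421 to 1740 per pool), and osteogenic-gated cells by markers including *Sp7*, *Phex*, *Dmp1*, *Ifitm5* and *Bglap3* (29573 cells, 522 to 2825 per pool). The genes summed to 7.90 ± 3.02 UMIs per 10000 in adipogenic-gated and 2.19 ± 0.42 in osteogenic-gated cells (SD, n = 16 pools). Without *Ifi27l2a* the adipogenic-gated sum ran from 4.55 (pool 1) to 15.5 (pool 12), against 4.42 and 6.65 in leukocytes of these pools. The sum was below that of leukocytes only in pools 6, 9 and 13. Mean *Bst2* was 2.93 in adipogenic-gated cells against 1.52 in leukocytes, and *Isg15* 0.924 against 0.468. *Gbp2* (0.285 against 0.452) and *Parp14* (0.125 against 0.408) went the other way. These 2 classes were not tested against each other. Of 31 genes tested 29 were lower in osteogenic-gated cells and 1 was higher, against 40.2% and 40.7% of 13296 genes. The median log2 fold change of the 31 was -1.61, against 0.00 over all genes tested.

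*Ifit1* had the largest difference, at 0.0724 to 1.25 UMIs per 10000 in adipogenic-gated and 0.0037 to 0.163 in osteogenic-gated cells (log2 fold change of osteogenic-gated over adipogenic-gated cells -3.25 ± 0.20 SE, adjusted p = 6.5e-12). It was lower in osteogenic-gated cells in 16 of 16 pools, although the ranges overlapped. *Rtp4*, a chaperone of membrane receptors, was at 0.0622 to 0.460 against 0.0048 to 0.0382 with no overlap (-3.06 ± 0.18 SE, adjusted p = 2.0e-12). The GTPases followed, with *Igtp* (-2.65 ± 0.22 SE), *Gbp3* (-2.59 ± 0.12 SE), *Ifi47* (-2.30 ± 0.27 SE), *Gbp2* (-2.22 ± 0.14 SE), *Gbp7* (-2.15 ± 0.08 SE) and *Irgm1* (-1.28 ± 0.18 SE). *Bst2* was at 1.81 to 4.77 in adipogenic-gated and 0.562 to 1.08 in osteogenic-gated cells (-1.38 ± 0.12 SE, adjusted p = 1.2e-09), with no overlap. *Isg15* had the smallest called decrease (-0.64 ± 0.16 SE), and *Rsad2* did not pass the test (-0.50 ± 0.45 SE, adjusted p = 0.31).

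The 1 gene called higher in osteogenic-gated cells was *Ifi27l2a* (0.63 ± 0.13 SE), whose mean mesenchymal level is read as background. Pan-leukocyte and macrophage genes were also higher in osteogenic-gated cells, with *Ptprc* (CD45) at 1.34, *C1qa* at 1.23, *Tyrobp* at 1.14 and *Lyz2* at 0.90 on the log2 scale. The mesenchymal gate allows more pan-leukocyte UMIs in cells with more UMIs of its collagen and stromal genes. It can thus shape these values, which cannot measure free RNA. Granulocyte genes were mixed. *Mpo* and *Elane* were called higher and *Camp* lower (-0.91), and *S100a8* (0.26), *S100a9* (0.42), *Ngp*, *Ltf* and *Prtn3* were not called. The part of free RNA in the *Ifi27l2a* difference was not tested. With a stricter gate *Ifi27l2a* turned to -0.47. Scaling by library size alone gave a split over all genes of 2387 higher to 9475 lower, in place of 5411 to 5342, and moved the median of all genes to -0.50. The median of the 31 was then -2.11, so the members lay below the other genes under both scalings. Limiting cells by UMI counts left only 4 members tested, of which 3 were lower, against 29.1% of 6192 genes. Median depth was 14464.5 to 31207 UMIs per osteogenic-gated cell and 2917 to 14907.5 per adipogenic-gated cell. Of 44 other interferon-stimulated genes 34 were lower in osteogenic-gated cells and 5 higher, led by *Iigp1* (-6.11 ± 0.30 SE), *Slfn5* (-4.42 ± 0.10 SE) and *Uba7* (-3.79 ± 0.13 SE). Of 25 signalling genes 12 were lower and 8 higher, against 40.2% and 40.7% of all genes tested. Among them *Tmem173*, the adaptor of DNA sensing, was lower (-1.35 ± 0.08 SE) and *Jak2* higher (1.41 ± 0.08 SE).

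**Figure D1:**
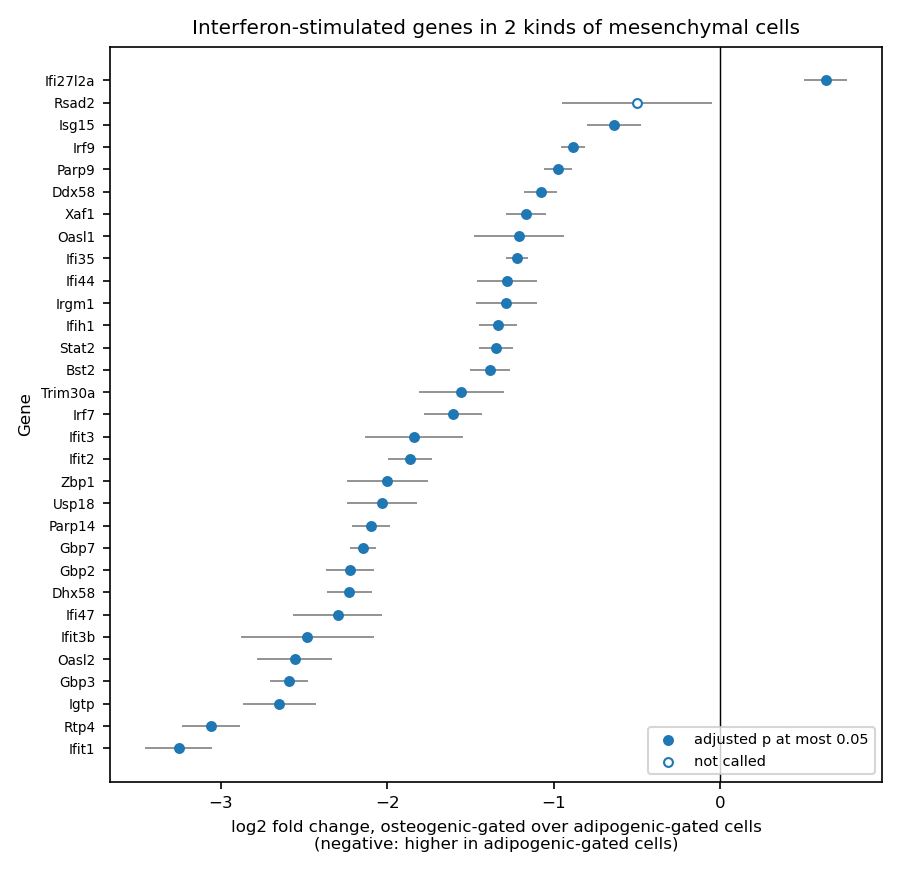
Log2 fold change of osteogenic-gated over adipogenic-gated cells (x axis, bars are standard errors, n = 16 pools) for the 31 genes tested (y axis); filled points have an adjusted p of at most 0.05. All points except *Ifi27l2a* (0.63) lie below 0, from *Rsad2* at -0.50 (not called) to *Ifit1* at -3.25.

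The level of most of the genes varied more between pools than that of a typical gene. In mesenchymal cells 29 of the 35 had at least 50 UMIs in the mean pool. Their median coefficient of variation over the 16 pools was 56.0%, against 19.9% for all 12477 genes at that limit, not matched by level. All 29 were above that median, and 20 were above the 90th percentile of the genes (42.9%). Without *Ifi27l2a* and *Trim30a* these counts were 27 of 27 and 18, with a median of 52.6%. In leukocytes 26 of the 35 were compared, with a median of 54.5% against 19.6% for 8300 genes. The largest ratios of highest to lowest pool in mesenchymal cells were 98.0 for *Rsad2*, 25.7 for *Ifit3*, 21.3 for *Igtp*, 17.1 for *Ifit1* and 15.2 for *Ifi47*. *Rsad2* was at 0.00107 UMIs per 10000 in pool 3, 0.00902 in the median pool and 0.105 in pool 6. In pool 3 it was at 0.680% of the leukocyte level, below the lowest value of *Lyz2* over pools (0.835%), so the ratio of 98.0 is set against a level no higher than free RNA. *Ifit3* ranged from 0.00429 in pool 11 to 0.110 in pool 12, with a median of 0.0181. *Igtp* ranged from 0.00860 in pool 3 to 0.183 in pool 6 (median 0.0276), and *Ifi47*, an interferon gamma-induced GTPase, from 0.0132 to 0.201 in the same pools (median 0.0426).

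Pool 6 had the highest mesenchymal level of most of the genes, including all 6 GTPases, all 4 sensors and the 3 transcription factors. *Isg15*, *Usp18* and *Ifit3* were highest in pool 12. Within adipogenic-gated cells alone, *Igtp*, *Irf9* and *Stat2* were still highest in pool 6. There *Gbp2*, *Gbp3*, *Gbp7*, *Ifi47*, *Irgm1* and *Zbp1* were highest in pool 8, and *Ifih1*, *Ddx58*, *Dhx58* and *Irf7* in pool 12. Across the 16 pools, the genes outside the 35 whose mesenchymal level followed the sum of the 35 most closely, of 12448 compared, were *Phf11d* (Pearson r = 0.92), *Sp100* (0.91), *Herc6* (0.91), *Rnf213* (0.89) and *Tapbp* (0.88), all highest in pool 6. These are descriptions over 16 pools. All genes of a pool share its library and depth, which differed between pools, and no test was made.

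**Figure D2:**
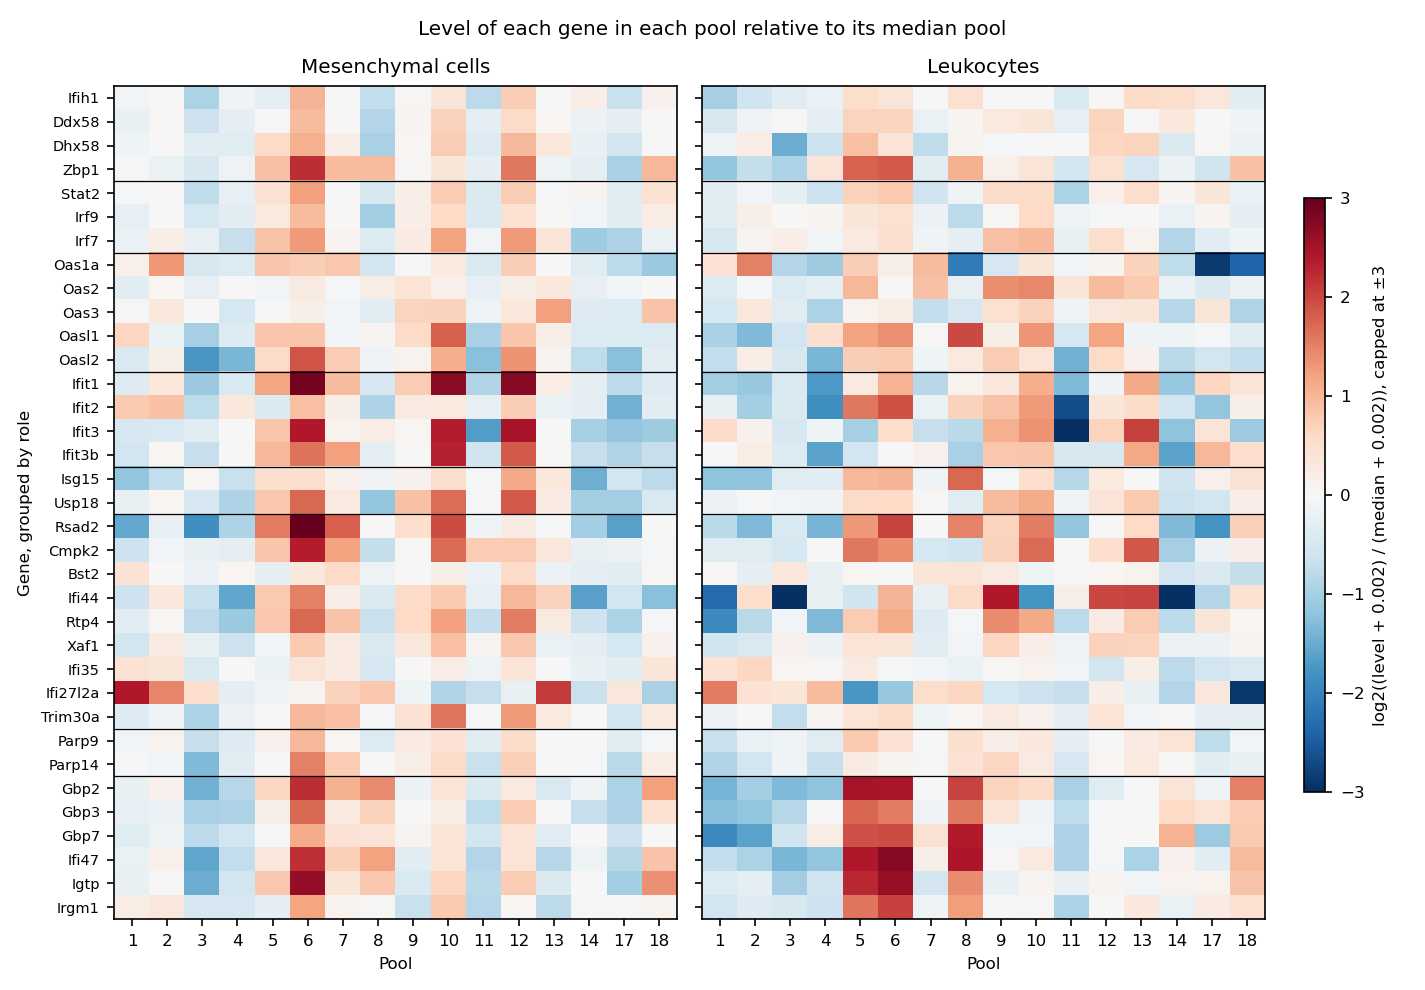
Level of each gene (rows, grouped by role) in each pool (columns) relative to its median pool, as log2((level + 0.002)/(median + 0.002)) capped at 3, in mesenchymal cells (left) and leukocytes (right). Pool 6 is red over most rows on the left, pools 6, 10 and 12 over the IFIT genes, and pools 5, 6 and 8 over the GTPase genes on the right.

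The pools with the highest levels differed between groups of genes and between classes. The 6 GTPase genes summed to 4.04 UMIs per 10000 in leukocytes of pool 6, 3.78 in pool 5 and 3.38 in pool 8, then 1.75 in pool 18 and 1.20 in pool 14. The other 11 pools had 0.380 to 1.03. In macrophage-gated cells alone, pools 6, 8 and 5 again led, with 4.98, 4.48 and 4.11. Those 3 pools thus led within macrophages as they did in all leukocytes. In mesenchymal cells the sum was 1.25 in pool 6, 0.608 in pool 8 and 0.560 in pool 18, against a median of 0.358. The 4 IFIT genes with *Isg15* and *Usp18* summed to 1.69 in mesenchymal cells of pool 12, 1.34 in pool 6 and 1.29 in pool 10, against a median of 0.557. The 4 IFIT genes alone were highest in pool 6 in mesenchymal cells (0.559) and in pool 13 in leukocytes (0.314). In leukocytes the IFIT genes with *Isg15* and *Usp18* were highest in pool 8 (1.47), pool 6 (1.15) and pool 5 (1.02), and pool 12 had 0.666, near the median of 0.639. *Ifi27l2a* in leukocytes followed neither order, with 45.8 in pool 1, 30.7 in pool 4 and 24.5 in pool 8, against 4.72 in pool 5 and 7.20 in pool 6.

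The makeup of the mesenchymal cells also differed between pools: adipogenic-gated cells were 44.2% of them in pool 6 and 45.6% in pool 7, against a median of 23.0%. Within adipogenic-gated cells the GTPase sum was highest in pool 8 (2.97), pool 6 (2.43), pool 5 (1.82) and pool 18 (1.58), against a median of 0.846. These are the 4 pools that led in leukocytes. The IFIT genes with *Isg15* and *Usp18* summed to 5.27 in adipogenic-gated cells of pool 12, 2.76 in pool 5, 2.36 in pool 10 and 2.30 in pool 6, against a median of 1.03. In osteogenic-gated cells the GTPase sum was 0.347 in pool 6 and 0.107 to 0.239 in the other pools, and the IFIT and *Isg15* sum was 0.834 in pool 10 and 0.182 in pool 14.

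T cells and the UMIs of interferon genes were unevenly spread over pools as well. Pools 6, 8 and 5, with the highest GTPase sums, held 125, 83 and 23 T-cell-gated cells, while pool 14, with 156, had a GTPase sum of 1.20 and pool 18, with 5, had 1.75. *Ifng*, the gene of interferon gamma, had 48 UMIs in leukocytes, and 46 of them were in T-cell-gated cells: 17 in pool 6, 11 in pool 8, 8 in pool 7, 8 in pool 14, and 1 each in pools 9 and 10. The 8 UMIs of pool 7 were in 1 cell. Pool 5 had none among its 23 T cells, where a count of 0 allows up to 3 UMIs. *Ifnb1* had 50 UMIs in leukocytes, 47 of them in macrophage-gated cells of 12 pools, and 5 in mesenchymal cells. In mesenchymal cells the low-level interferon genes *Ifnab*, *Ifnk* and *Ifnz* had 83, 57 and 57 UMIs in all. Of 21 interferon genes 11 had no UMI in mesenchymal cells and 15 had none in leukocytes. The part of these cells and transcripts in the differences between pools was not tested.

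**Figure D3:**
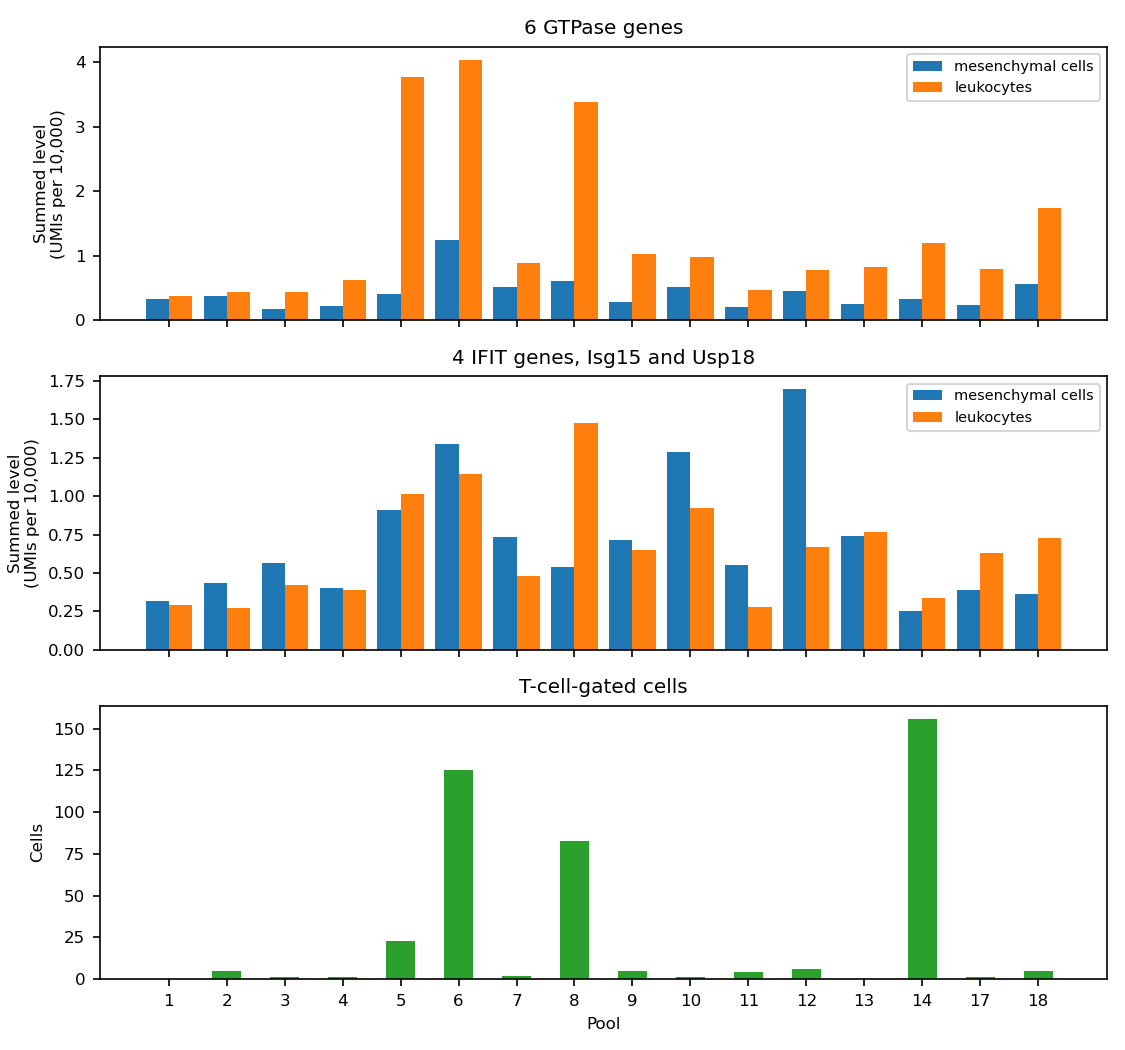
Summed level in UMIs per 10000 (y axes) of the 6 GTPase genes (top) and of the 4 IFIT genes with *Isg15* and *Usp18* (middle) in each pool (x axis), in mesenchymal cells and leukocytes, with the number of T-cell-gated cells per pool (bottom). GTPase bars of leukocytes stand out in pools 5, 6 and 8 (3.78, 4.04 and 3.38), mesenchymal IFIT and *Isg15* bars in pools 6, 10 and 12, and T cells in pools 6, 8 and 14.

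To see how the genes are spread over cells, each cell with at least 2000 UMIs was thinned to 2000, and cells with 4 or more of the 35 genes were counted. In mesenchymal cells this share was 2.41 ± 2.01% (SD, n = 16 pools; 1300 of 55173 cells). It was lowest in pool 17 (0.384%, 95% exact binomial interval 0.219 to 0.622%) and highest in pool 6 (7.02%, 6.22 to 7.88%), with a median of 1.84%. Pools 12 (6.21%), 8 (4.18%) and 10 (4.14%) came next. Of the 55173 cells, 31478 held none of the genes at this depth. The count includes *Ifi27l2a*, whose mean mesenchymal level is read as background. In pools with at least 20 such cells it was seen in 2.08% to 45.8% of the cells with 4 or more. Among the other cells it was seen in 1.31% to 22.3%. Its part in the share and in the order of pools was not tested. In leukocytes the share was 8.83 ± 5.8% (SD, n = 16 pools; 1349 of 14394 cells), with 20.9% in pool 8, 19.6% in pool 6 and 18.7% in pool 5, a median of 6.42% and 3.30% in pool 1. Without thinning, at the full and unequal depth of each cell, the shares were 26.2% and 30.6%. The intervals cover counting error only.

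By class, the share was 6.79 ± 5.77% of adipogenic-gated cells and 0.562 ± 0.561% of osteogenic-gated cells (SD, n = 16 pools), with 19.3% in pool 8 and 18.8% in pool 12 for the former. Adipogenic-gated cells made up 11.8% to 45.6% of the mesenchymal cells of a pool. In macrophage-gated cells it was 11.0 ± 7.40% (SD, n = 16 pools), with 26.5% in pools 6 and 8. T-cell-gated cells had 53 of 361 cells over all pools, and granulocyte-gated cells 9 of 1256. The osteogenic and granulocyte shares were the lowest of the classes given here, and no class is known to lack all 35 genes.

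**Figure D4:**
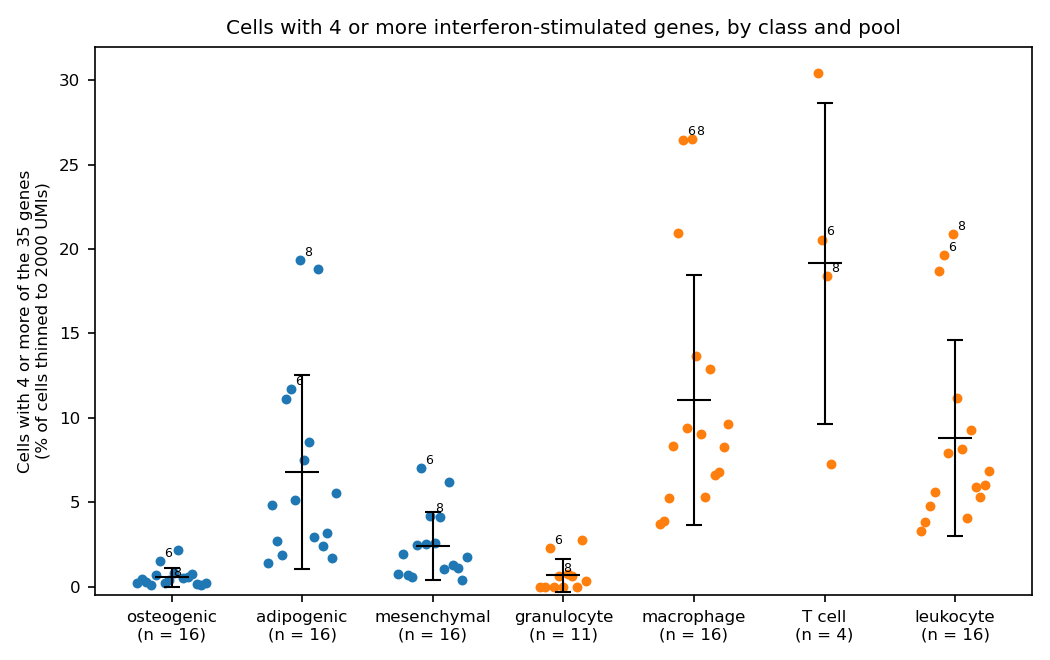
Share of cells with 4 or more of the 35 genes after thinning to 2000 UMIs (y axis, % of cells) in each class (x axis); points are pools with at least 20 cells, with pools 6 and 8 numbered, and bars are the mean and SD over pools. Adipogenic-gated cells (mean 6.79%) lie above osteogenic-gated cells (0.562%), and macrophages (11.0%) above granulocytes.

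Mesenchymal cells with 4 or more of the genes were then set against the other mesenchymal cells of the same pools, with the 35 genes left out. The split uses counts of the same droplets, so the values describe which genes go with the 35 in a cell and are given without p-values. Genes of the same response can be higher through the split itself, so the counts below are descriptions only. In 15 pools, 43 of 45 other interferon-stimulated genes were called higher and none lower, against 16.8% and 21.5% of 12832 genes. With library size alone as scaling the split over all genes was 4566 higher to 1338 lower, in place of 2153 to 2765, and all 45 were higher. *B2m* and *Isg20* were the 2 not called. *Cxcl10*, a chemokine that draws T cells, had a log2 fold change of 4.71 ± 0.44 SE, *Iigp1* of 4.34 ± 0.36 SE and *Phf11d* of 3.72 ± 0.18 SE. The highest of all genes was *Cxcl9* (6.39 ± 0.36 SE), a related chemokine induced by interferon gamma, at a median of 0.651 UMIs per 10000 in the cells with 4 or more and 0.00856 in the others. Of 25 signalling genes 13 were higher, among them the double-stranded RNA sensor *Tlr3* (1.68 ± 0.21 SE), *Socs1* (1.02 ± 0.24 SE) and *Tmem173* (0.91 ± 0.17 SE), and *Jak2* was lower.

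These cells were mostly adipogenic-gated: 42.9% to 94.6% of them per pool, against 11.9% to 45.9% of the other cells, and the share was higher in 16 of 16 pools. Osteoblast and osteocyte genes were lower in them, with *Bglap* (osteocalcin) at -2.92 ± 0.27 SE and *Dmp1* at -3.03 ± 0.26 SE. Within adipogenic-gated cells alone, in 11 pools, 40 of 44 other interferon-stimulated genes were called higher and none lower, against 3.68% of 10993 genes called higher. Limiting cells by UMI counts, which left 5 pools, gave 9 of 21 higher and none lower, against 0.37% of 5132 genes called higher. The summed level of pan-leukocyte genes was 0.173 to 2.95 UMIs per 10000 in the cells with 4 or more and 0.451 to 2.04 in the others, and was higher in the cells with 4 or more in 9 of 16 pools (2.95 against 0.673 in pool 14). The mesenchymal gate itself keeps these genes low in both, and their part in the result was not tested. Median depth was 4044 to 18568.5 UMIs per cell with 4 or more and 3404 to 22058.5 in the others, and was lower in the cells with 4 or more in 15 of 16 pools (median over pools 10708 against 17113).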

How the data were processed

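Counts of UMIs per gene and barcode (whole numbers, not normalized) were deposited by the authors for each pool and run; per the labels, reads came from a 3′ v2 kit and were processed with Cell Ranger 5.0.0 on mm10. The study removed doublets between mice in its own analysis, and the matrices precede that step; no doublet caller was run here, and since the gates are set by the ratio of both kinds of gate genes, cells of a class can still hold UMIs of the other kind. The 35 genes, the gene lists and the tests were chosen with earlier results of these data known. A cell needed 400 to 6200 detected genes, and cells over 10% of UMIs from mitochondrial genes, 20% from *Rpl* or 15% from *Rps* genes were dropped. A class was used in a pool with at least 20 cells. Levels are UMIs per 10000, and thinning drew 2000 UMIs per cell without replacement.

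For each class the UMIs of all its cells in a pool were added up, and classes were compared by the quasi-likelihood test of edgeR 4.0.16 in R 4.3.3 with the pool as a block, after filterByExpr and TMM scaling, with Benjamini-Hochberg adjustment over all genes tested and a threshold of 0.05. The script was tested on simulated data. A pair of classes shares its loaded droplet library and its mice, which is why pools were paired; deviations of same-numbered pools correlated with a median r of 0.14 to 0.47 over the 5 comparisons. DESeq2 1.42.0, other scalings, filters, gates and depths, the second run and the omission of each pool in turn were tried as alternatives.

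Named genes were chosen by rule: the 6 highest means per class, the 4 largest called differences between leukocytes and mesenchymal cells, the 5 largest ratios between pools, the 3 largest called values of each other list, and the 5 genes most alike. Members outside these parts are given by their role, and *Cxcl9*, the lower genes of other lists and the osteoblast genes were chosen after their values were seen. Promoters are RefSeq windows on GRCm38.p6.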

Additional observations from a re-analysis of the deposited data

Results flagged for a closer look

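Among the 4 pools with T cells, 26 groups of 4 values were checked for a value far from the other 3, and 3 were marked. The chance rate of about 1 in 20 groups does not apply to genes at 0 in most pools, where 1 UMI can mark a group. In T-cell-gated cells *Oasl2* had 0.0131 UMIs per 10000 in pool 6 and 0 in the other 3 pools. *Oasl1* had 0.0452 in pool 8 and 0 in the others. *Rtp4* had 0.131 in pool 6 and 0 to 0.0223 in the others. These are genes near 0, where a few UMIs set the value.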

How the results depend on the processing

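Of 211 recomputed summary values, 190 stayed within 1.5 times or within 1 SD over pools of the reported value. The limits of 400 and 6200 are given by the study in reads; applied to UMI counts in place of detected genes, they removed all cells over 6200 UMIs. The genes called were then 15 of 24 tested in leukocytes against mesenchymal cells, 2 of 19 in macrophages against T cells, 7 of 8 in granulocytes (34.8% of all genes were lower), 3 of 4 in osteogenic-gated cells (29.1%) and 9 of 21 other interferon-stimulated genes in the cells with 4 or more, and the mesenchymal sum was 5.79. *Bst2* (-0.28), *Irgm1* (-0.062) and *Rtp4* (-0.056) turned lower in leukocytes, and *Ifi27l2a* (-0.035) in macrophages against T cells. A stricter gate gave 6 genes in macrophages against T cells and turned *Ifi27l2a* to -0.47 in osteogenic-gated cells; no filter on low counts gave 18 in macrophages against T cells and 32 in granulocytes, where the sum of both runs gave 25 and at least 50 cells 23. Thinning to 1000 UMIs gave a leukocyte share of 2.60%, and to 4000 UMIs 24.2% (6.06% of mesenchymal cells). Requiring 3 genes gave 19.2% and 5.13%, and no thinning 30.6% and 26.2%. Added after the data were seen: adipogenic-gated cells alone had a share of 6.79%, the leukocyte sum without *Ifi27l2a* was 6.81, and without pools 5, 6 and 8 *Irgm1* turned to -0.030 and *Ifit3* to 0.22. The cause of the changes was not tested where the construction does not show it.

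Leaving out 1 pool at a time gave 27 to 30 genes in leukocytes, 9 to 13 in macrophages against T cells, 14 to 24 in granulocytes (24 without pool 4), 28 to 29 in osteogenic-gated cells and 41 to 43 other interferon-stimulated genes; sums of 3.50 to 3.76 and 22 to 24.8, and shares of 2.10 to 2.55% and 8.02 to 9.20%. *Ifit1*, at -0.16 to 0.13 over these fits, turned positive without pools 6, 7, 10 and 12, and *Ifit3*, at -0.33 to 0.018, without pools 6 and 12. Without the replicate block the counts were 27, 8, 15, 29 and 42, each within 1.5 times of the paired count. DESeq2 gave 26 (and *Ifi44* lower), 11, 15, 29 and 42, with the median of all genes at -0.15, 0.13 and -0.17 in the first 3 comparisons. Depth limits the genes at the foot of the order, such as *Oas2* and *Ifit3b*, most.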

Other observations

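Osteoclast-gated cells, which reached 20 cells in 3 pools, had the highest mean *Ifi27l2a* of the classes, with 180 UMIs per 10000 in pool 1, 59.3 in pool 2 and 10.3 in pool 9; the corresponding macrophage levels were 36.4, 22.3 and 14.1, so in pool 9 the osteoclast level was the lower one. These pools are too few for a test, and the gates were set on the same droplets. *Bst2* in the same cells was 0.570 to 1.27.

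Of the 21 *Ifnb1* UMIs in pool 3, 20 were in 1 macrophage-gated cell of 10680 UMIs, in which 4 of the 35 genes were seen after thinning. No other leukocyte or mesenchymal cell had more than 2. *Cxcl9* in mesenchymal cells was 1.27 UMIs per 10000 in pool 6, 0.472 in pool 8, 0.232 in pool 18 and 0.129 in pool 5. It was at most 0.0558 in the other 12 pools. These values were chosen after they were seen.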
